A study of Mus musculus with 11 samples.

Results

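This account concerns 7 mouse glycosyltransferase genes of the intestinal lining, Fut2, B3galt5, B4galnt2, St3gal4, St6galnac1, Gcnt3 and Mgat4c. They were taken by gene symbol from a table of 24294 symbols, and all 7 were listed there. RNA of the small intestine was sequenced in 4 HLJDD, 4 HFD and 3 ND libraries. The series title names Huang Lian Jiedu Decoction, a herbal preparation with the initials of the HLJDD group, and obese mice. The labels used here spell out neither HFD nor ND, give no diet for the HLJDD mice and no dose, duration, strain, age, sex or stretch of small intestine. They do not say that each library came from a separate animal, so the p-values below speak of library-to-library spread, part or all of which may be technical.

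The inner surface of the gut is covered by mucins and membrane proteins that carry branched sugar chains. Glycosyltransferases build these chains in the Golgi apparatus by adding 1 sugar at a time, and the last sugars added, fucose, sialic acid and N-acetylgalactosamine, decide which blood-group-like antigens bacteria, lectins and toxins meet. Fut2 and B4galnt2 are the best known of the chain-ending enzymes of the mouse gut, and both are known to affect its resident bacteria.

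Values are FPKM, read counts scaled to gene length and to the reads in genes of a library, as the authors deposited them. Whole reads came back from the FPKM steps of all 24294 symbols, so the reads behind each value are known. The libraries held 30100481 to 37940645 reads. The mitochondrial share of the reads was 40.7% in HLJDD replicate 2, 32.4% in HFD replicate 1 and 10.4% to 19.3% in the other 9 libraries. A change is the difference of 2 groups' mean log2(FPKM + 1), tested two-sided by limma with Benjamini-Hochberg adjustment over the 10764 genes that reached 1 FPKM in at least 3 libraries, and called at an adjusted p under 0.05. The median change of all these genes was -0.127 in HLJDD and -0.205 in HFD relative to ND, and 0.061 between HLJDD and HFD. The filter kept 4 of the 7 members, B4galnt2, St3gal4, Gcnt3 and Mgat4c. Fut2 and B3galt5 reached 1 FPKM in 2 libraries each, and St6galnac1 in none.

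As deposited, Fut2, B3galt5, B4galnt2, St3gal4 and Mgat4c lay lower in every HLJDD and every HFD library than in every ND library. They did so by very different factors and not all past the test, and no member differed between HLJDD and HFD libraries beyond the spread. Mgat4c, Fut2 and B3galt5 averaged 3.26%, 4.01% and 8.18% of their ND level in HFD libraries, and B4galnt2 and St3gal4 56.1% and 64.6%. In HFD against ND, 3 of the 4 kept members were called, all lower, Mgat4c, St3gal4 and Gcnt3, while 11.5% of all genes tested were called lower and 16.6% in either direction. In HLJDD against ND, 2 of 4 were called, both lower, Mgat4c and St3gal4, against 7.79% of all genes called lower and 11.9% called in either direction. For HLJDD against HFD, limma called 0 of 4 members and 0 of 10764 genes (0.0%). No member and 186 genes had an unadjusted p under 0.05 there, and limma-voom on the recovered reads called 0 of 15488. Counting values alone, 5 of 7 members lay lower in every HFD library than in every ND library, as did 18.4% of all genes. The same 5 and St6galnac1, which rests on single reads, lay lower in every HLJDD library than in every ND library (13.4% of all genes). After scaling by the median ratio, which takes out the shift of all genes, B4galnt2 overlapped between HFD and ND libraries. Gcnt3 then lay lower in every HLJDD library than in every ND library. No member separated HLJDD from HFD libraries in either direction. Of all genes, 0.564% lay lower in every HLJDD library than in every HFD library, and the share that lay higher was not counted. The comparisons share libraries, so they are not independent of each other, and the members were chosen with results of these data known, so no test is attached to these counts.

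**Figure D1:**
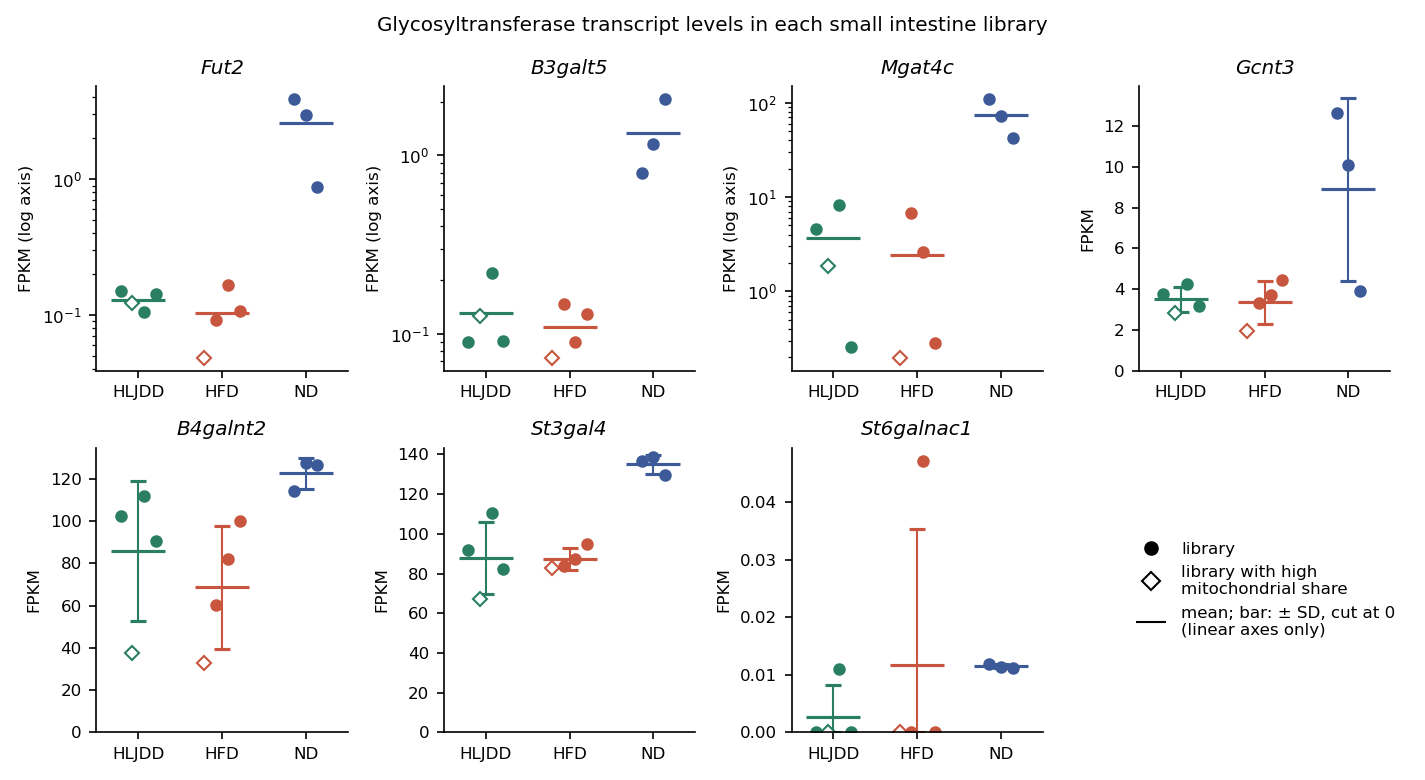
FPKM of each member in every library (points) of the HLJDD, HFD and ND groups, with the group mean (horizontal line) and, on the linear axes, the SD (bars). Fut2, B3galt5 and Mgat4c are on log axes; open diamonds mark HLJDD replicate 2 and HFD replicate 1, the libraries with 40.7% and 32.4% mitochondrial reads. The ND points lie above all HLJDD and HFD points for Fut2, B3galt5, Mgat4c, B4galnt2 and St3gal4, and overlap with them for Gcnt3.

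Fut2 encodes the secretor enzyme, an alpha-1,2-fucosyltransferase that puts the last fucose on galactose and so makes the H antigen of secretions. The gene lies on the minus strand of chromosome 7 at 45648591 to 45666394 (GRCm38.p6). It stood at 0.150, 0.123, 0.106 and 0.142 FPKM in the HLJDD libraries, at 0.0485, 0.0915, 0.166 and 0.108 FPKM in the HFD libraries, and at 3.90, 2.97 and 0.873 FPKM in the ND libraries. These values rest on 12 to 18 reads per library in HLJDD, 5 to 19 in HFD and 105 to 445 in ND. Each ND library lay above all 8 others, and the ND libraries differed 4.47-fold among themselves. Mean levels were 0.130 ± 0.020 FPKM in HLJDD, 0.103 ± 0.048 FPKM in HFD and 2.58 ± 1.55 FPKM in ND (SD, n = 4, 4 and 3). The HLJDD mean was 0.0505 and the HFD mean 0.0401 of the ND mean. An exact two-sided permutation test gave p = 0.0286 for HFD against ND and for HLJDD against ND, the smallest that 35 arrangements can give, and p = 0.371 for HLJDD against HFD. Tested without the filter, Fut2 fell by 1.59 in HFD against ND (SE 0.26, adjusted p = 0.00878) and changed by -1.55 in HLJDD against ND (adjusted p = 0.0123) on the log2(FPKM + 1) scale, which understates the change of so low a gene. That test called 4.08% and 3.23% of 24294 genes lower. On the recovered reads limma-voom gave log2 changes of -4.15 (SE 0.73, adjusted p = 0.00376) and -3.85 (SE 0.67, adjusted p = 0.00422), where it called 7.74% and 6.52% of genes lower. The neighbouring paralogs Fut1 and Sec1, which also encode alpha-1,2-fucosyltransferases, had at most 7 and at most 12 reads in any library. How reads shared with these paralogs were counted is not given in the sources used here.

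B3galt5 encodes a beta-1,3-galactosyltransferase that caps N-acetylglucosamine with galactose, which makes the type 1 chains that Fut2 can fucosylate. It lies on the plus strand of chromosome 16 at 96235801 to 96319859. Its level was 0.0902, 0.126, 0.219 and 0.0906 FPKM in the HLJDD libraries, 0.0731, 0.147, 0.0903 and 0.129 FPKM in the HFD libraries, and 0.797, 1.16 and 2.07 FPKM in the ND libraries. The lowest ND library held 193 reads of the gene and the highest HLJDD or HFD library 57, so the groups did not overlap. The means were 0.131 ± 0.061 FPKM in HLJDD, 0.110 ± 0.034 FPKM in HFD and 1.34 ± 0.66 FPKM in ND (SD, n = 4, 4 and 3). The exact permutation p was 0.0286 for both comparisons with ND and 0.686 for HLJDD against HFD. In the test without a filter, B3galt5 fell by 1.04 in HFD against ND (SE 0.14, adjusted p = 0.00469) and changed by -1.01 in HLJDD against ND (adjusted p = 0.00644).

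Mgat4c belongs to the family of N-acetylglucosaminyltransferase IV enzymes, which add a branch to N-glycans. It lies on the plus strand of chromosome 10 at 101681487 to 102391851. Among the 11 measured genes of N-glycan branching it had the highest mean level in ND libraries, 74.8 ± 33.7 FPKM (SD, n = 3), above its relatives Mgat4a with 46.2 ± 0.96 FPKM and Mgat4b with 34.5 ± 2.03 FPKM. The HLJDD libraries held 4.53, 1.87, 8.16 and 0.260 FPKM, the HFD libraries 0.197, 6.69, 2.60 and 0.284 FPKM, and the ND libraries 109.5, 72.7 and 42.2 FPKM. The lowest ND library therefore stood above the highest of the others by a wide margin. Within the HLJDD and HFD groups Mgat4c varied more than any other member read in every library, 31.4-fold and 34.0-fold, and it varied 2.59-fold within ND. It fell by 4.79 in HFD against ND (SE 0.72, adjusted p = 0.0014) and changed by -4.26 in HLJDD against ND (SE 0.72, adjusted p = 0.00319). On this scale no other member changed as much. The call stood in all 21 alternatives, with adjusted p from 0.00081 to 0.0119 and from 0.00202 to 0.0258. HLJDD minus HFD was 0.53, with a 95% interval from -0.92 to 1.97, and it was 0.09 without HLJDD replicate 3 and 1.06 without HFD replicate 2.

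St3gal4 encodes an alpha-2,3-sialyltransferase that puts sialic acid on terminal galactose, a step that also makes the acceptor on which B4galnt2 works. It lies on the minus strand of chromosome 9 at 35046576 to 35116864. The libraries held 91.8, 67.2, 110.4 and 82.3 FPKM in HLJDD, 82.6, 83.9, 87.5 and 94.99 FPKM in HFD, and 136.7, 138.8 and 129.7 FPKM in ND. Every ND library stood above every other library, and the lowest value was that of HLJDD replicate 2. St3gal4 fell by 0.63 in HFD against ND (SE 0.16, adjusted p = 0.0217) and changed by -0.64 in HLJDD against ND (SE 0.16, adjusted p = 0.024). Scaled by the median ratio, which takes out the shift of all genes, the changes were -0.37 (adjusted p = 0.0436) and -0.45 (adjusted p = 0.0237). The call in HFD against ND was lost without HFD replicate 3 (adjusted p = 0.0504), ND replicate 1 (0.0844) or ND replicate 2 (0.0971), and by limma-voom, with -0.33 (adjusted p = 0.0972). That in HLJDD against ND was lost without HLJDD replicate 4 (adjusted p = 0.0719) or ND replicate 1 (0.0988), 2 (0.11) or 3 (0.0501), and by limma-voom, with -0.42 (adjusted p = 0.0516). With a replicate block both calls were lost (adjusted p = 0.0512 in HFD and 0.0618 in HLJDD against ND). Scaling to equal sums (0.0648) and a fit of only the 2 groups compared (0.0533) also lost the call in HLJDD against ND. HLJDD minus HFD was -0.01, with a 95% interval from -0.33 to 0.31.

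B4galnt2 encodes the beta-1,4-N-acetylgalactosaminyltransferase of the Sd(a) and Cad antigens, which adds N-acetylgalactosamine beside a terminal sialic acid. It lies on the minus strand of chromosome 11 at 95863559 to 95914960. It held 102.2, 37.7, 112.0 and 90.4 FPKM in the HLJDD libraries, 32.7, 60.1, 81.9 and 100.1 FPKM in the HFD libraries, and 114.0, 127.2 and 126.3 FPKM in the ND libraries. The 3 ND values lay close together and above all others, and the 2 lowest values, 37.7 and 32.7 FPKM, belonged to HLJDD replicate 2 and HFD replicate 1, the libraries with the highest mitochondrial share. B4galnt2 missed the threshold in HFD against ND (log2 change -0.94, SE 0.39, adjusted p = 0.109) and in HLJDD against ND (-0.62, SE 0.39, adjusted p = 0.319). Without those 2 libraries the change in HFD against ND was smaller, -0.63, and passed (adjusted p = 0.0234), and it also passed without HLJDD replicate 2 alone (-0.94, adjusted p = 0.0387). Rescaled to equal sums without mitochondrial transcripts, B4galnt2 ran from 49.0 to 104.0 FPKM in HLJDD, from 36.9 to 93.4 FPKM in HFD and from 117.2 to 122.9 FPKM in ND, and the change in HFD against ND was -0.90 (adjusted p = 0.0465). Under the median-ratio scaling the HFD libraries (43.1 to 101.9) and the ND libraries (96.9 to 120.5) overlapped. The change in HLJDD against ND was -0.27 without HLJDD replicate 2 and -0.27 without both libraries (adjusted p = 0.271), and missed the threshold there too. HLJDD minus HFD was 0.31, with a 95% interval from -0.48 to 1.11, and it was 0.66 without HLJDD replicate 2 and 0.00 without HFD replicate 1. The antisense gene Gm11534 lies inside B4galnt2 and was not analysed here, and without a known strand setting its reads cannot be told apart from those of B4galnt2.

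Gcnt3 encodes the mucin-type beta-1,6-N-acetylglucosaminyltransferase that starts the core 2 and core 4 branches of O-glycans. It lies on the minus strand of chromosome 9 at 70031495 to 70039890. Its level was 3.75, 2.85, 4.25 and 3.16 FPKM in HLJDD, 1.95, 3.32, 3.71 and 4.48 FPKM in HFD, and 12.7, 10.1 and 3.91 FPKM in ND. ND replicates 1 and 2 stood apart, whereas ND replicate 3 lay inside the range of the HLJDD and HFD libraries. Gcnt3 fell by 1.09 in HFD against ND (SE 0.31, adjusted p = 0.0326), and the -1.02 of HLJDD against ND missed the threshold (SE 0.31, adjusted p = 0.0511). The call in HFD against ND was lost in 9 of 20 alternatives, among them without HFD replicate 1 (adjusted p = 0.0759), 2 (0.0517) or 3 (0.0539) and without ND replicate 1 (0.164) or 2 (0.142). In HLJDD against ND, Gcnt3 passed without HFD replicate 1 (-1.02, adjusted p = 0.0349) and without ND replicate 3 (-1.46, adjusted p = 0.00373). There it also passed with median-ratio scaling (-0.86, adjusted p = 0.0424) and with equal sums without mitochondrial transcripts (-0.97, adjusted p = 0.0483). HLJDD minus HFD was 0.07, with a 95% interval from -0.55 to 0.69.

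St6galnac1 encodes the alpha-2,6-sialyltransferase that puts sialic acid on the first N-acetylgalactosamine of mucin O-glycans and makes the sialyl-Tn antigen. It lies on the minus strand of chromosome 11 at 116765025 to 116775507. It had 0, 0, 1 and 0 reads in the HLJDD libraries, 0, 0, 4 and 0 in the HFD libraries and 1 in each ND library. A count of 0 allows up to 3 reads, 0.0331 to 0.0417 FPKM across the libraries, so the gene was not detectable at this depth outside HFD replicate 3, with 0.0472 FPKM, and no fold is given. Goblet cells, the mucus-secreting cells in which St6galnac1 is known in mouse intestine, were represented in every library. The main secreted mucin Muc2 had 15.2 ± 3.23 FPKM in HLJDD, 15.9 ± 4.85 FPKM in HFD and 11.8 ± 2.39 FPKM in ND (SD), and the summed goblet cell markers ran from 3088 to 4008 FPKM, from 4208 to 4725 FPKM and from 1279 to 2301 FPKM in those groups. Of the 10 goblet cell markers kept by the filter, 4 were called higher and 0 lower in each comparison with ND. Over all genes tested, 5.06% were called higher in HFD against ND and 4.1% in HLJDD against ND.

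**Figure D2:**
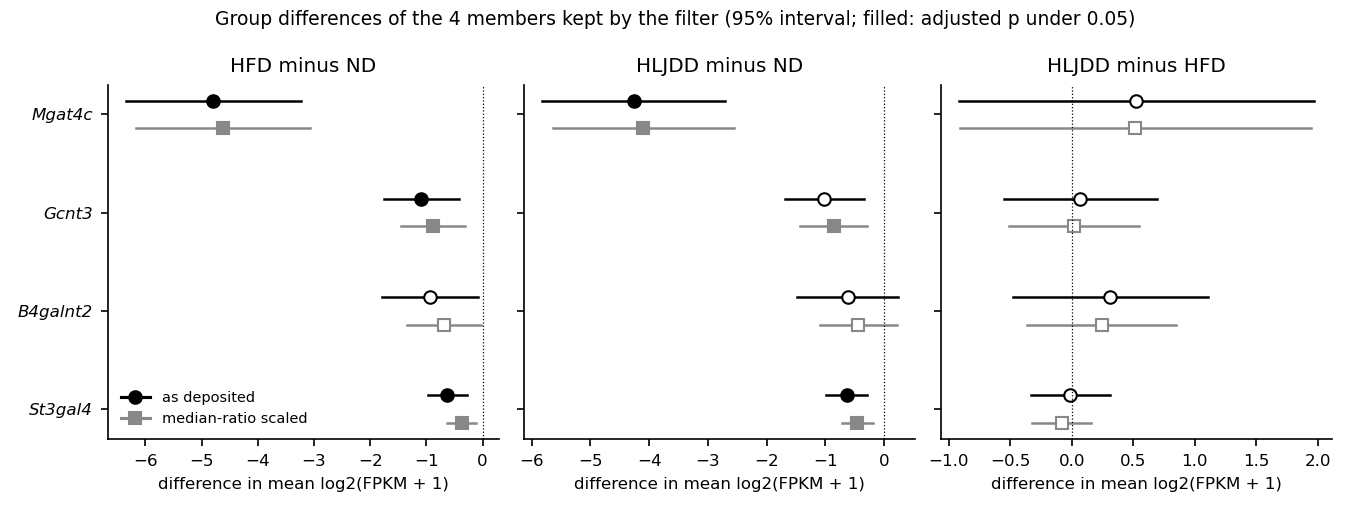
Differences between group means of log2(FPKM + 1) (x axis) for the 4 members kept by the filter (rows), in HFD minus ND, HLJDD minus ND and HLJDD minus HFD (panels, each with its own scale), as deposited (black circles) and after median-ratio scaling (grey squares), with 95% intervals. Filled symbols have an adjusted p under 0.05. Mgat4c stands at -4.79 and -4.26 against ND, and all intervals of HLJDD minus HFD include 0.

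In bulk RNA, fewer cells of a type and less RNA per cell cannot be told apart, and here the make-up of the libraries moved with the groups. All 9 epithelial markers reached 1 FPKM in every library. Their sum ran from 4671 to 7007 FPKM in HLJDD, from 5007 to 7258 FPKM in HFD and from 6544 to 6858 FPKM in ND. It was lowest in HLJDD replicate 2 and HFD replicate 1, and 1 of the 9 was called lower in each comparison with ND. Fabp6, the bile acid binding protein of the ileum, had 0.213 to 2.27 FPKM in HLJDD libraries, 1.26 to 4.31 FPKM in HFD libraries and 9822, 6702 and 397 FPKM in the ND libraries. Slc10a2, the bile acid uptake transporter of the same stretch, had up to 0.432 FPKM in HLJDD, up to 0.551 FPKM in HFD and 256.0, 141.2 and 7.70 FPKM in ND. Fabp1, a fatty acid binding protein highest towards the upper small intestine, averaged 10857 ± 2797 FPKM in HLJDD, 12448 ± 1508 FPKM in HFD and 2269 ± 1978 FPKM in ND (SD, n = 4, 4 and 3). Gata4, a transcription factor of the upper small intestine, averaged 32.5 ± 4.48 FPKM in HLJDD, 30.5 ± 4.85 FPKM in HFD and 16.6 ± 7.53 FPKM in ND. The 8 distal markers together ran from 58.2 to 209.7 FPKM in HLJDD, from 102.0 to 175.8 FPKM in HFD and from 880.5 to 10585 FPKM in ND, with none at 0 throughout a group. The 9 proximal markers summed to 8778 to 15144 FPKM in HLJDD, 11588 to 15317 FPKM in HFD and 646.9 to 4916 FPKM in ND. Fabp1 made up most of this sum in every library. Of the 7 proximal markers kept, 5 were called higher and 1 lower in each comparison with ND. Of the 7 distal markers kept, 5 were called lower in HFD and 6 in HLJDD against ND, and 0 higher. Slc10a2 reached 1 FPKM only in the ND libraries, so it passed the filter only through the group where it is high. Of all genes tested, 5.06% were called higher and 11.5% lower in HFD against ND. In HLJDD against ND these shares were 4.1% and 7.79%. Summed markers of leukocytes ran from 199.5 to 619.9 FPKM in HLJDD, from 204.5 to 1154 FPKM in HFD and from 1029 to 1255 FPKM in ND, and those of smooth muscle from 166.0 to 443.6 FPKM, from 149.5 to 590.1 FPKM and from 437.9 to 618.5 FPKM. The 6 tuft cell markers summed to 5.41 to 6.61 FPKM in HLJDD, 4.01 to 8.58 FPKM in HFD and 8.29 to 12.2 FPKM in ND, with 1 of the 3 kept called lower in each comparison with ND. The 10 markers of mature enterocytes summed to 31857 to 50832 FPKM in HLJDD, 46868 to 50934 FPKM in HFD and 26784 to 42194 FPKM in ND, with 2 called higher and 1 lower in each comparison with ND. The part of these cell types in the members' differences was not tested. The stretch of gut these libraries hold and the group label therefore cannot be told apart for the comparisons with ND.

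The members also followed these genes in different ways inside the ND group. ND replicate 1, with the most Fabp6 and the least Gata4 (9.75 FPKM), had the most Fut2, Gcnt3 and Mgat4c, and ND replicate 3, with the least Fabp6 and the most Gata4 (24.7 FPKM), had the least of all 3. B3galt5 ran the other way, with 0.797 FPKM in ND replicate 1 and 2.07 FPKM in ND replicate 3. B4galnt2 and St3gal4 varied little there, 1.12-fold and 1.07-fold. With 3 libraries this is a description, and no test was made. In ND replicate 3, Fut2 at 0.873 FPKM, B3galt5 and Mgat4c at 42.2 FPKM stood above every HLJDD and HFD library. So did Fabp6, at 396.8 FPKM against at most 4.31 FPKM, and Slc10a2, at 7.70 FPKM against at most 0.551 FPKM. The part of the stretch of gut in these differences was not tested.

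**Figure D3:**
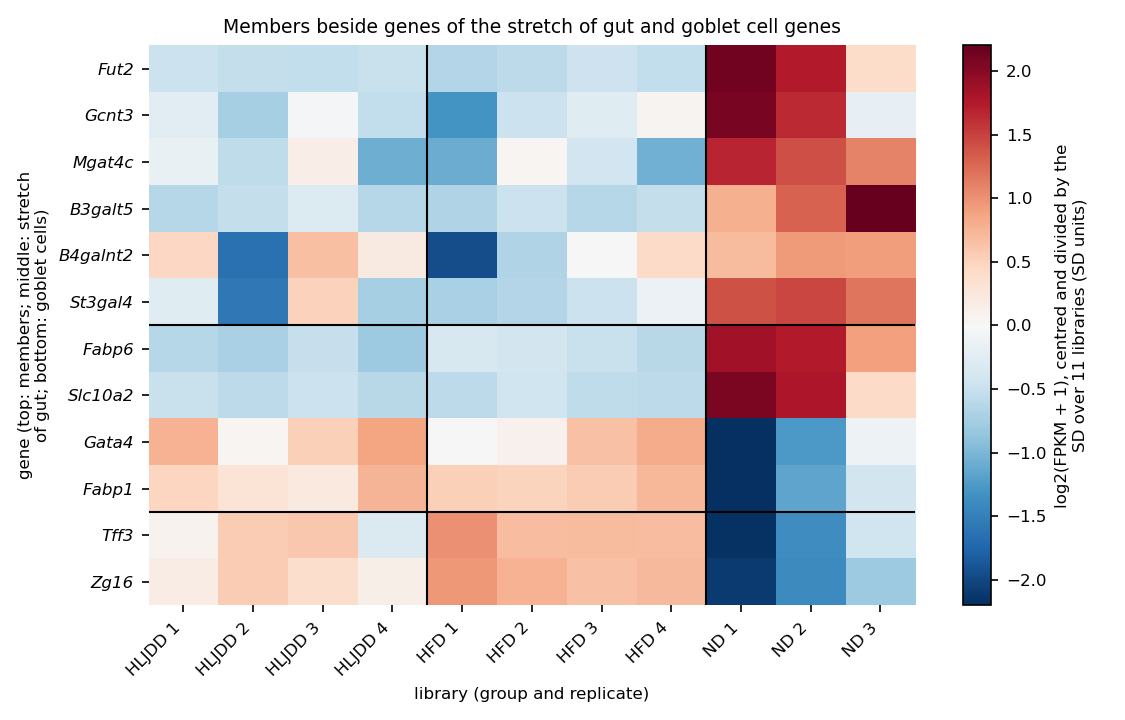
Heat map of log2(FPKM + 1), centred on each gene's mean and divided by its SD over the 11 libraries, for 6 members (upper rows), Fabp6, Slc10a2, Gata4 and Fabp1 as genes of the stretch of gut (middle) and Tff3 and Zg16 as goblet cell genes (lower). Libraries run from HLJDD over HFD to ND. Fut2, Gcnt3 and Mgat4c are highest in ND replicate 1, as are Fabp6 and Slc10a2, B3galt5 is highest in ND replicate 3, and B4galnt2 is lowest in HLJDD replicate 2 and HFD replicate 1.

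For each kept member, the most similar genes had the smallest root mean square difference of centred log2(FPKM + 1) over the 11 libraries. The search covered the genes kept by the filter, without unnamed gene models, pseudogenes and receptor segments. Mgat4c was most like Duox2, an oxidase that makes hydrogen peroxide (0.449), Slc5a8, a transporter of short-chain fatty acids (0.469), and Tmigd1 (0.571), while its own root mean square about its mean was 2.25. Duox2 had 1.99, 2.22, 3.12 and 0.223 FPKM in HLJDD, 0.109, 2.72, 1.02 and 0.252 FPKM in HFD, and 56.4, 50.3 and 32.3 FPKM in ND. Like Mgat4c, it was lowest in HLJDD replicate 4 and in HFD replicates 1 and 4. St3gal4 was most like Vps26a (0.0432), Sox13 (0.0555) and Ipmk (0.0652), around its own 0.325. B4galnt2 lay nearest to Mfsd9 (0.0904), Emc10 (0.116) and Mrps12 (0.118), around 0.639, and Gcnt3 to Rgs13, a gene known from tuft cells (0.17), the sterol synthesis enzyme Msmo1 (0.171) and Cutal (0.212), around 0.618. All of these share libraries and depth, so the likeness is a description.

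Promoter sequence is shown for St3gal4 and Mgat4c, the 2 members called lower in both comparisons with ND. Each line gives, 5′ to 3′ on the strand of the gene, the 250 bases before an annotated start (RefSeq, GRCm38.p6), for St3gal4 chr9:35116865-35117114 on the minus strand and for Mgat4c chr10:101681237-101681486 on the plus strand, before the outermost of its annotated starts. Capitals mark matches, on either strand, to the motifs searched.
St3gal4: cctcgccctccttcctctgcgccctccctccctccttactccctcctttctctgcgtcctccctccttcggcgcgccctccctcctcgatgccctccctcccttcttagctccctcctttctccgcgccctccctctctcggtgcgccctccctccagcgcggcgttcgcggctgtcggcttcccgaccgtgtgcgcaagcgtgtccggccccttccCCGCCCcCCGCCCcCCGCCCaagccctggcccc
Mgat4c: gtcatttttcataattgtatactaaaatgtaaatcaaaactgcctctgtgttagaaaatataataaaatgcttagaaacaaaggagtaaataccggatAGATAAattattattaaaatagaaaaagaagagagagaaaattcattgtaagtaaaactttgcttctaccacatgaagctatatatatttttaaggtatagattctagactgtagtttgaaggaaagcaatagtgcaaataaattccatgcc
The St3gal4 window was 72.8% G and C with 25 CG pairs, and the Mgat4c window 26.8% with 1 CG pair, against a median of 52.4% G and C over 32851 promoters. The windows before the other 3 annotated starts of Mgat4c, not printed, were 38.4%, 47.6% and 47.2% G and C with 4, 8 and 3 CG pairs, the first without a match, the next with a GATA match and the last with a GATA match and a GC box. The searched motifs were the HNF4 letters CAAAGTCC, found in 1.2% of these promoters, the GATA letters AGATAA (9.99%), the CDX letters TTTATGG (2.43%), the HNF1 motif (0.00913%), the STAT letters TTCNNNGAA (7.02%) and the GC box GGGCGG (32.7%). The capitals in St3gal4 are 3 GC boxes read on the opposite strand, and those in Mgat4c a single GATA match. The St3gal4 window also lies inside 4930581F22Rik, a noncoding gene of the opposite strand with 0.822 to 2.29 FPKM. A match is a description of letters and not of a bound site.

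The other genes of these pathways were read from 12 lists, which held 136 measured genes and 80 kept by the filter, members included. In HFD against ND, 3 of the 80 were called higher and 17 lower, and in HLJDD against ND 3 higher and 13 lower, while 5.06% and 4.1% of all genes tested were called higher and 11.5% and 7.79% lower. After median-ratio scaling, with 78 kept, the split was 13 higher and 16 lower in HFD against ND and 11 higher and 13 lower in HLJDD against ND, so how many list genes rose depends on the scaling. In HLJDD against HFD, 0 of 80 were called by limma and 0 of 112 by limma-voom, with 3 and 5 at an unadjusted p under 0.05. Leaving out ND replicate 1 or ND replicate 2 left 13 calls in HFD against ND, and 8 or 7 in HLJDD against ND.

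**Figure D4:**
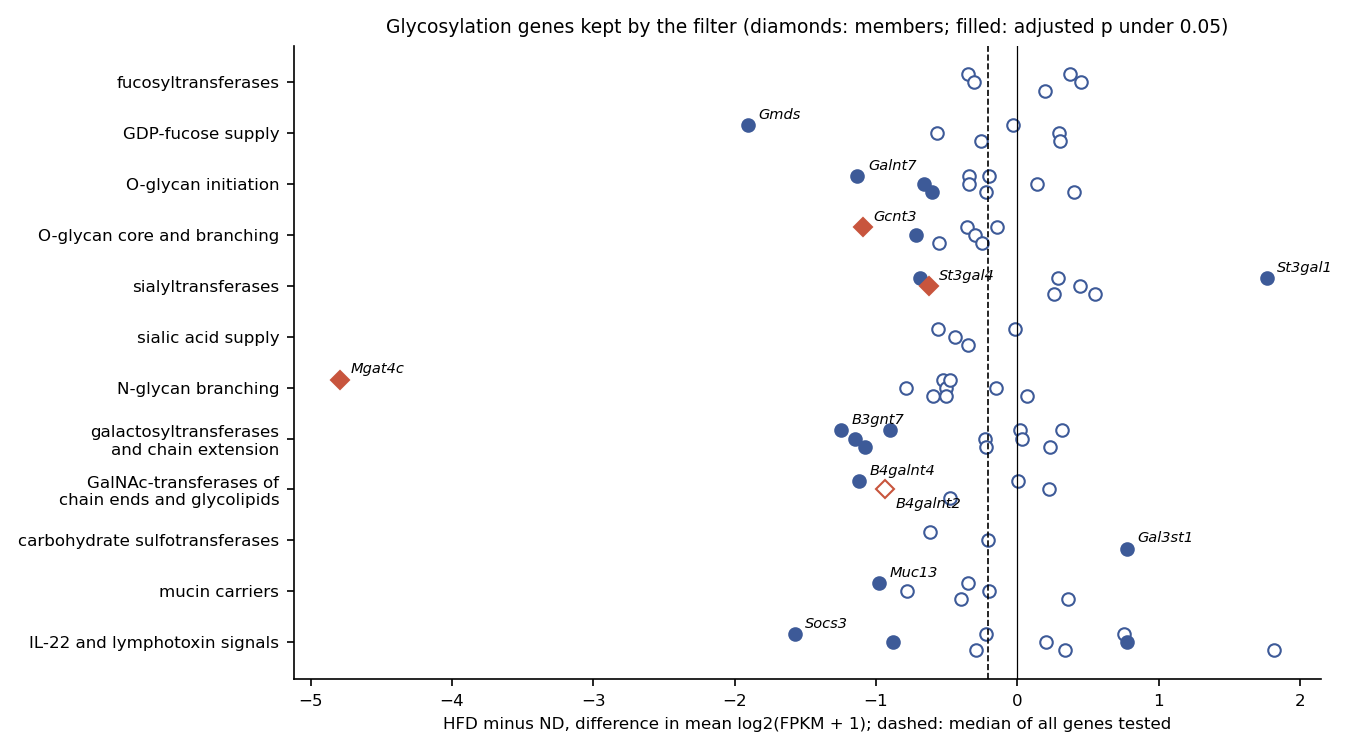
Difference HFD minus ND in mean log2(FPKM + 1) (x axis) of each list gene kept by the filter, by list (rows; the shift within a row only separates points). Diamonds are members, filled symbols have an adjusted p under 0.05, and the dashed line is the median of all genes tested, -0.205. Mgat4c lies farthest to the left at -4.79, and of the called genes St3gal1 farthest to the right at 1.77.

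Of the fucosyltransferase genes, 5 of 11 were kept and 0 were called in either comparison with ND, with medians of 0.20 in HFD against ND and 0.21 in HLJDD against ND. Fut8, which adds the core fucose of N-glycans, had 19.0 ± 5.69 FPKM in HLJDD, 20.5 ± 6.21 FPKM in HFD and 15.0 ± 0.38 FPKM in ND (SD), the highest levels of the list. With median-ratio scaling 3 of the 5 were called higher in HFD against ND. Of the 6 genes that supply GDP-fucose, the sugar donor, Gmds, the first enzyme of its synthesis from GDP-mannose, fell by 1.91 in HFD against ND (39.9 ± 20.1 against 130.0 ± 15.2 FPKM, adjusted p = 0.0263), and this call was lost without ND replicate 1 (0.104), 2 (0.0974) or 3 (0.053). Fcsk, the fucose salvage kinase, rose by 0.50 in HLJDD against ND (4.91 ± 0.21 against 3.19 ± 0.14 FPKM, adjusted p = 0.013), and this was lost without ND replicate 1 (0.0763) or 2 (0.0683).

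Among 9 kept genes that start mucin-type O-glycans, 3 fell in HFD against ND and 1 in HLJDD against ND. None rose as deposited, while under median-ratio scaling 2, Galnt2 and Galnt6, were called higher in each of these comparisons. Galnt7, a polypeptide N-acetylgalactosaminyltransferase, had 9.63 ± 2.46 FPKM in HFD against 21.9 ± 1.97 FPKM in ND (log2 change -1.13, adjusted p = 0.00571) and 9.09 ± 2.57 FPKM in HLJDD (-1.21 against ND, adjusted p = 0.00486). Galnt3 fell by 0.66 in HFD against ND (adjusted p = 0.00539). The fall of Galnt4 by 0.60 (adjusted p = 0.0435) was lost in 10 of 21 alternatives, with adjusted p of up to 0.144 without ND replicate 1. Of 7 kept genes of O-glycan cores and branches, B3gnt6, which makes core 3, fell with Gcnt3 in HFD against ND (0.353 ± 0.183 against 1.21 ± 0.148 FPKM, -0.72, adjusted p = 0.00723) and was the called gene of that list in HLJDD against ND (-0.68, adjusted p = 0.0112). B3gnt6 reached 1 FPKM only in the ND libraries, with at most 0.615 FPKM in the others. It thus passed the filter only through the group where it is high, and under median-ratio scaling it was not kept. Its call in HLJDD against ND was lost with a pseudocount of 0.1 (adjusted p = 0.0535) and with a replicate block (0.0567).

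Of 20 sialyltransferase genes 7 were kept. As deposited, 1 was called higher and 2 lower in HFD against ND, and 1 in each direction in HLJDD against ND. Under median-ratio scaling 2 were called higher and 2 lower in HFD against ND, and 3 higher and 2 lower in HLJDD against ND. St3gal1, which puts sialic acid on core 1 O-glycans, had 4.69 ± 2.40 FPKM in HLJDD, 5.499 ± 2.35 FPKM in HFD and 0.831 ± 0.348 FPKM in ND (SD), and all HLJDD and HFD libraries lay above all ND libraries. It rose by 1.77 in HFD against ND (adjusted p = 0.00528) and by 1.56 in HLJDD against ND (adjusted p = 0.012), a call that was lost without ND replicate 1 (0.0756) or 2 (0.0561). St3gal4 fell, and St6galnac6 fell by 0.69 in HFD against ND (adjusted p = 0.0329), which was lost in 6 of 20 alternatives, with adjusted p of up to 0.158 without ND replicate 1. The median of the 7 was 0.29 in HFD against ND. None of 4 kept genes of sialic acid supply was called. Of 9 kept genes of N-glycan branching, Mgat4c was called in HFD against ND, and Mgat4c and Mgat2 in HLJDD against ND. Mgat2 fell by 0.60 there (adjusted p = 0.0448), which was lost in 13 of 21 alternatives.

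Of 10 kept galactosyltransferase and chain-extension genes, 4 fell in each comparison with ND. None rose as deposited, while under median-ratio scaling B4galt6 was called higher in HFD against ND and B3galt4 in HLJDD against ND. B4galt1, a beta-1,4-galactosyltransferase, had 17.8 ± 2.87 FPKM in HLJDD, 16.5 ± 2.31 FPKM in HFD and 35.6 ± 0.86 FPKM in ND (SD), log2 changes of -0.97 and -1.08 against ND (adjusted p = 0.00236 and 0.00118). B4galt4 changed by -0.96 in HLJDD (adjusted p = 0.00487) and by -1.15 in HFD (adjusted p = 0.00155) against ND. B3gnt7, which extends chains with N-acetylglucosamine, changed by -1.03 (adjusted p = 0.00998) and -1.24 (adjusted p = 0.00301) in those groups. These 3 genes were called against ND in all 21 alternatives. Of 5 kept N-acetylgalactosaminyltransferases of chain ends and glycolipids, B4galnt2 among them, B4galnt4 was the 1 called in each comparison with ND, with 2.49 ± 0.85 FPKM in HLJDD, 1.97 ± 0.33 FPKM in HFD and 5.41 ± 0.34 FPKM in ND (-0.91 and -1.12 against ND, adjusted p = 0.00983 and 0.00276), and the call for HLJDD was lost without ND replicate 1 (0.0567) or 2 (0.0508). Under median-ratio scaling B4galnt1 of this list was called higher in each comparison with ND. Of 3 kept carbohydrate sulfotransferases, Gal3st1, which makes sulfatide, rose by 0.76 in HLJDD and by 0.78 in HFD against ND (adjusted p = 0.0131 and 0.00995). Without ND replicate 1 these gave 0.0888 and 0.067, and without ND replicate 2 the value for HLJDD was 0.0574.

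Muc13, a membrane mucin and the 1 called gene of 6 kept mucin carriers, had 523.2 ± 34.6 FPKM in HLJDD, 486.4 ± 64.8 FPKM in HFD and 968.3 ± 211.6 FPKM in ND (SD), log2 changes of -0.87 and -0.98 against ND (adjusted p = 0.0088 and 0.00372). Under median-ratio scaling Muc2 was called higher in HFD against ND. Interleukin-22, which signals through the transcription factor Stat3, and lymphotoxin are known to take part in switching on Fut2 in mouse epithelium. Of 9 kept genes of these signals, 1 was called higher and 2 lower in HFD against ND, and 2 lower in HLJDD against ND. Their median change was 0.20 in HFD and 0.26 in HLJDD against ND, while that of all genes was -0.205 and -0.127. The lymphotoxin gene Ltb averaged 7.85 ± 5.17 FPKM in HLJDD, 9.98 ± 9.2 FPKM in HFD and 1.0 ± 0.111 FPKM in ND. Ltb was not called (1.71 and 1.82 against ND, adjusted p = 0.241 and 0.167). Lta, below the filter, averaged 0.511, 0.72 and 0.039 FPKM in those groups. Socs3, a feedback inhibitor that Stat3 induces, had 10.9 ± 4.92 FPKM in HLJDD, 12.8 ± 3.82 FPKM in HFD and 39.5 ± 8.13 FPKM in ND (-1.84 and -1.57 against ND, adjusted p = 0.00336 and 0.0063). Stat3 changed by -0.67 in HLJDD and by -0.88 in HFD against ND (adjusted p = 0.0377 and 0.0085). For HFD this was lost without ND replicate 2 (0.0514) and for HLJDD in 11 of 21 alternatives, with adjusted p of up to 0.155. Il10rb, a subunit of the interleukin-22 receptor, rose by 0.78 in HFD against ND (65.8 ± 2.31 against 38.3 ± 5.94 FPKM, adjusted p = 0.0036). Il22 itself, named after its values were seen, had 0 reads in all 8 HLJDD and HFD libraries and 4, 2 and 1 reads in the ND libraries, at or near the level that a count of 0 allows.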

How the data were processed

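RNA of the small intestine was measured in 11 libraries (4 HLJDD, 4 HFD, 3 ND), grouped by their titles. Per the labels' protocols, RNA came from a TRIzol extraction, and a VAHTS Universal V6 kit was used for library preparation. fastp, HISAT2, HTSeq and R 3.2.0 were used with mm10, per the submitters' processing notes. No source used here gives the gene annotation or the strand setting. The authors deposited FPKM per gene symbol, and the single files and the series table held the same values. Whole reads were recovered for 24294 of 24294 symbols (100.0%, tolerance 0.02 reads), totals 30100481 to 37940645.

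Tests used limma 3.58.1 in R 4.3.3 (lmFit, eBayes with trend) on log2(FPKM + 1), all 11 libraries in one fit, genes with at least 1 FPKM in 3 libraries, Benjamini-Hochberg adjustment. The fit was tested on simulated data. Intervals are 95% intervals of the fit. The log2(FPKM + 1) scale understates changes of low genes. Members below the filter were tested by exact permutation, without the filter, and by limma-voom (at least 10 reads in 3 libraries). Members and gene lists were chosen with earlier results of these data known. Named genes were all members, up to 3 called genes with the smallest adjusted p per list and comparison, the 3 genes most like each kept member, and genes of gut stretch and goblet cells. Others named (Fut1, Sec1, Fut8, Mgat4a, Mgat4b, Galnt2, Galnt6, B4galt6, B3galt4, B4galnt1, Il22, Ltb, Lta) were added after their values were seen. Positions and promoter sequences are from RefSeq, GRCm38.p6, the assembly behind mm10, with promoters for 4 of the 7 members.

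FPKM divide by the gene length in the authors' annotation. That length, worked out from the reads, was 14.9 kb for St3gal4, 4.18 kb for B4galnt2 and 8.14 kb for Mgat4c, and the longest coding transcripts in GENCODE M21 are 2.1, 1.72 and 4.27 kb, so the levels of these genes beside other genes depend on that choice. Replicates of a group differed beyond sampling noise (chi-square per gene 35.9 to 665.0 in 15 pairs). Libraries with the same replicate number in different groups did not deviate together (10 correlations from -0.219 to 0.366), so the numbers were not used as pairs. Alternatives were a pseudocount of 0.1, dropping the filter or asking for a mean of 5 FPKM, median-ratio scaling, equal sums (TPM), equal sums without mitochondrial transcripts, limma-voom on recovered reads, only the 2 groups compared, a replicate block, and leaving out each library or both with high mitochondrial share.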

Additional observations from a re-analysis of the deposited data

Results flagged for a closer look

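St6galnac1 was flagged in 2 of 14 groups of 4 libraries screened, because a single library stood far from the other 3. It had 0.01102 FPKM, 1 read, in HLJDD replicate 3, and 0.04719 FPKM, 4 reads, in HFD replicate 3, while the other 3 libraries of each group were at 0. For continuous values chance flags about 1 in 20 groups. That rate does not hold here, since a group with reads in a single library is always flagged.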

How the results depend on the processing

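Mgat4c was called lower against ND in both comparisons under all 21 alternatives. The count of members called in HFD against ND, 3 as reported, was 5 with TPM scaling and ranged from 1 to 4 when each library was left out in turn. The count in HLJDD against ND, 2 as reported, was 4 without a filter, 1 in a fit of only the 2 groups compared, and 1 to 3 with a library left out. Over all genes, the 1786 calls of HFD against ND became 3404 with equal sums without mitochondrial transcripts, 2706 by limma-voom, 3349 without both libraries of high mitochondrial share, and 617 to 3314 with a library left out. The 1279 calls of HLJDD against ND became 2104, 2173 and 2556 under the same settings and 435 to 1695 with a library left out. In HLJDD against HFD, the 0 calls became 1 without both libraries of high mitochondrial share, and 0 to 1 with a library left out. List genes called in HFD against ND, 20 as reported, numbered 33 by limma-voom, 35 without both libraries and 13 to 28 with a library left out, and in HLJDD against ND, 16 as reported, 26, 33 and 7 to 23. With a library left out, HLJDD minus HFD ran from 0.09 to 1.06 for Mgat4c and from 0.00 to 0.66 for B4galnt2. Directions that reversed were near 0 and all in HLJDD against HFD. Gcnt3 gave -0.03 without both libraries and -0.11 to 0.19 with a library left out. St3gal4 gave 0.02 with TPM scaling, 0.02 without mitochondrial transcripts, 0.08 without both libraries and -0.13 to 0.11 with a library left out. With a pseudocount of 0.1 the log2 changes of Fut2 were -3.52 in HFD against ND and -3.31 in HLJDD against ND, and those of B3galt5 -2.70 and -2.58. The cause of these shifts was not tested, apart from what each setting changes by construction.

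With the replicate number as a block, the members called were 1 in HFD against ND and 1 in HLJDD against ND, Mgat4c in both, and all genes called were 1080 and 724. The numbers did not pair the libraries, so this says nothing about the size of an effect. Depth limits Fut2 and B3galt5 in HLJDD and HFD libraries, with 5 to 19 and 16 to 57 reads, and St6galnac1 in all libraries.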
